A study of Arabidopsis thaliana with 4 samples.

Results

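The class III peroxidase genes of Arabidopsis thaliana were examined by chromatin accessibility in nuclei of root tips, with and without osmotic stress. The rule took protein-coding genes whose TAIR10 product is named as a peroxidase superfamily protein, or whose symbol is PER or PRX with a number. It gave 66 genes of 27444 annotated protein-coding genes. One gene of this set, DOX1 (AT3G01420), is annotated as an alpha-dioxygenase with an animal-type haem peroxidase domain and so is not a class III enzyme. It is kept below because the rule names it. Conversely, PRXCA, PRXCB, PA2 and a few more genes called peroxidases fall outside the wording of the rule and are not members.

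Nuclei came from the outermost 5 mm of Col-0 wild-type roots, which grew either on control medium or on medium with the osmotic agent sorbitol. Each condition had 2 libraries, made with a kit that reads open chromatin and RNA from the same nucleus, and about 15000 nuclei went into each. The labels do not tie equal replicate numbers to a shared day or batch. The deposited RNA rows carry no gene names, so only accessibility was used. Counts of transposase cuts in called nuclei totalled 39458635 in control replicate 1 and 60915558 to 67513581 in the other 3 libraries, from 6069 and 12068 to 15302 nuclei. Control replicate 1 also had the fewest peaks (19858 against 24317 to 25001), and across shared regions its values correlated with those of the other libraries at 0.93 to 0.96, against 0.99 between the stress libraries. Control replicate 2 correlated more with either stress library (0.97) than with control replicate 1 (0.96). Called barcodes shared by any pair of libraries made up 0.876% to 2.35% of a library.

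Class III peroxidases are secreted haem enzymes of plants. They use hydrogen peroxide to oxidise phenolics, which cross-links lignin and other wall polymers and stiffens the wall, and in another reaction cycle they make reactive oxygen species, which can loosen it. In roots they are known for building the Casparian strip, the lignin ring that seals the endodermis, for lignifying vessels, for the growth of root hairs, and for setting the balance of superoxide and peroxide between the dividing and the elongating zone, where the transcription factor UPB1 represses several of them. NADPH oxidases of the RBOH family and superoxide dismutases supply the peroxide, laccases oxidise the same monolignols, and catalases and ascorbate peroxidases, which belong to other enzyme classes, remove peroxide inside the cell.

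A gene was given the counts of every shared region (a merged peak with a peak in all 4 libraries) that touched its body or the 2 kb upstream. Of the 66 genes, 44 (66.7%) had such a region, beside 72.1% of all protein-coding genes. These 44 genes held 52 of the 18340 shared regions, 34 of them with 1 region and 10 with 2. All 44 passed the filter on low counts, with 798 counts or more per gene and library and a median of 2538.

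Few shared regions lay over the starts of the peroxidase genes. There were 6 of the 66 genes (9.09%) with a shared region over their annotated start, whereas 47.9% of protein-coding genes did. With a peak in any library counted, the numbers were 28.8% and 61.0%. The 6 genes were AT1G05240, AT1G05250, AT1G14550, AT2G37130, AT5G24070 and AT5G40150. Of the 54 pairs of a gene and a shared region, 31 regions were upstream, 17 in the gene body and 6 over the start, and 44 pairs had a region that also fell in the window of another gene. For 21 of the 44 genes every shared region was nearer to the start of another gene. The values below are therefore those of chromatin around a peroxidase gene, and not always of its own promoter.

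**Figure D1:**
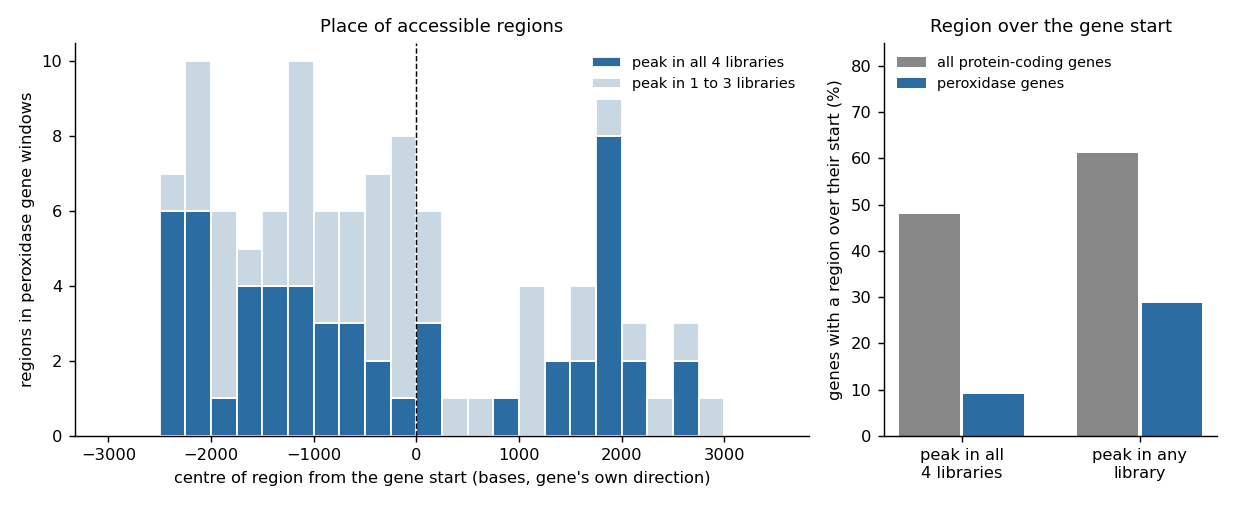
Left, the distance of the centre of each region from the start of the peroxidase gene in whose window it lies (x axis, bases; y axis, regions), with regions shared by all 4 libraries dark and the rest light. Right, the share of genes with a region over their start: 9.09% of the peroxidase genes against 47.9% of protein-coding genes for shared regions, and 28.8% against 61.0% for a peak in any library.

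For the regions on which the results turn, the central 300 bases are printed (TAIR10 sequence from the RefSeq copy of the genome, plus strand, 5′ to 3′). Capitals mark 4 motifs searched on both strands: the core of the abscisic acid response element (ACGTG), the G-box (CACGTG, which contains that core), the W-box of WRKY factors (TTGACC or TTGACT) and the AC elements of lignin genes (ACCTACC or ACCAACC). The first region spans the 3′ end of AT5G17820 and held the fall nearest to the threshold. Its printed bases (chr5:5887493-5887792) lie past that end, outside the gene body. The second lies upstream of AT4G26010 (chr4:13199190-13199489) and had the largest fall of the shared regions over all 4 libraries. The third lies upstream of Prx37 and AT4G08780 (chr4:5601744-5602043) and differed most between groups of nuclei. The fourth, in the window of AT3G50990 (chr3:18941519-18941818), and the fifth, upstream of DOX1 (chr3:163260-163559), had the largest rises of the shared regions.
AT5G17820: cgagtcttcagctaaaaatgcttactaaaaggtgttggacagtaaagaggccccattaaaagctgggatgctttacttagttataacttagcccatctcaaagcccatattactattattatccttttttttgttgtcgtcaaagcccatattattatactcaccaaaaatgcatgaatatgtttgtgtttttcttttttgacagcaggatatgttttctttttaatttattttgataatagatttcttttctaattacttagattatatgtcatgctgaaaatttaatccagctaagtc
AT4G26010: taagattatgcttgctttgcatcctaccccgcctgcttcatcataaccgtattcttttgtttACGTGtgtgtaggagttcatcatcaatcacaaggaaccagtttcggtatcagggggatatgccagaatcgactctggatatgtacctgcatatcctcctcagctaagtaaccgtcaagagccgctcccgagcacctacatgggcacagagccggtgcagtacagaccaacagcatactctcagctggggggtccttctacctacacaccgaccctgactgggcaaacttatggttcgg
Prx37 and AT4G08780: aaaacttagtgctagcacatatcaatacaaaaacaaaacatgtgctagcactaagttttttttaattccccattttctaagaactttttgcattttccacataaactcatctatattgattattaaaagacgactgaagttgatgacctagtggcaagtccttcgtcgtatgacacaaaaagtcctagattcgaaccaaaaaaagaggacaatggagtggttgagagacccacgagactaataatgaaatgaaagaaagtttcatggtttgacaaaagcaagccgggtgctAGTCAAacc
AT3G50990: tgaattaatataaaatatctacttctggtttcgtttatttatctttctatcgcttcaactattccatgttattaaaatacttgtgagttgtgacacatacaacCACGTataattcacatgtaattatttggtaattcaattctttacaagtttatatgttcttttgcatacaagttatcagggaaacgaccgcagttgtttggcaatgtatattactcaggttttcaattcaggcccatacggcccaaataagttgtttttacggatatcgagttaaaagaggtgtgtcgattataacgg
DOX1: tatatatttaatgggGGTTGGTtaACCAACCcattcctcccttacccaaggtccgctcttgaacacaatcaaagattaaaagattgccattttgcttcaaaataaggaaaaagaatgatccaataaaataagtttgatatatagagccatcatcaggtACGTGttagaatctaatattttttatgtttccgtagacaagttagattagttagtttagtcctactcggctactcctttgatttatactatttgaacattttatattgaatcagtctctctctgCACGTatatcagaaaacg

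In these windows, the DOX1 region held 2 abscisic acid cores and 2 AC elements, which lie on opposite strands and point away from each other. The AT4G26010 and AT3G50990 regions held 1 abscisic acid core each, the Prx37 region 1 W-box, and the AT5G17820 region none of the 4 motifs. Over all 52 regions, 36.5% held the abscisic acid core beside 35.0% of the 18340 shared regions, and 15.4% held a G-box beside 13.5%. A W-box was present in 30.8% beside 35.4%. An AC element was present in 6 regions (11.5%) beside 5.83%. A match is a description of the letters and not of a bound site.

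Without stress and with it, the level of accessibility ranged widely within the family. Per kb of gene body and upstream window, the 44 genes spanned 2.84 to 23.9 CPM (counts scaled to a library total of 1000000), with a median of 7.54 beside 9.35 over all 22820 genes with a shared region. The median peroxidase gene stood at the percentile 35.5, and 28 of 44 were below the median of all genes. The highest levels were those of AT5G58400 (23.9 CPM per kb), AT5G66390 (20.2), AT3G50990 (15.0), AT2G34060 (14.5) and AT2G37130 (13.9). The lowest were those of AT2G43480 (2.84), AT4G08780 (3.06) and AT2G38380 (3.91). AT5G66390, annotated as PRX72 with a part in lignin, had a region at its 3′ side and another upstream. The upstream region also lies in the windows of the dehydrin gene RAB18 and of AT5G66410. No test was made of these levels.

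To ask whether osmotic stress changed accessibility, counts were summed over all called nuclei of a library and compared between 2 stress and 2 control libraries by edgeR's quasi-likelihood test over all genes, with p-values adjusted by Benjamini-Hochberg and called under 0.05. A sum over nuclei cannot tell fewer nuclei of a type from less open chromatin per nucleus. None of the 44 peroxidase genes passed, where 0.925% of all genes did (0.701% higher and 0.223% lower). The lowest adjusted p was 0.0625. At an unadjusted p under 0.05 there were 14 genes, 4 higher and 10 lower, and the background at that limit was 21.9%. By direction, 9.09% of the peroxidase genes were higher beside 12.2% of all genes, and 22.7% were lower beside 9.71%. The median log2 change of the family was -0.03 beside -0.0015 for all genes, 14 genes lay above 0 and 30 below (50.6% of all genes lay below), and 24 were within 0.1 of 0. The standard error of the log2 changes ranged from 0.04 to 0.12. The libraries of the 2 groups did not overlap in 26 genes, with stress below in 20 and above in 6. In all genes they did not overlap in 57.3%, with stress below in 28.5% and above in 28.8%.

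DESeq2 on the same counts called 7 of the 44 genes, where it called 11.2% of all genes. They were DOX1, AT3G50990 and AT2G37130, higher, and AT5G17820, AT4G26010, AT4G33870 and AT1G71695, lower. Without control replicate 1 there were 8 calls (background 20.1%), and without control replicate 2 there were 20 (background 43.3%). Without stress replicate 1 or 2 there was none (background 0.688% and 0.811%). With 1 control library left, the fit assumes that it varies as the stress libraries do.

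**Figure D2:**
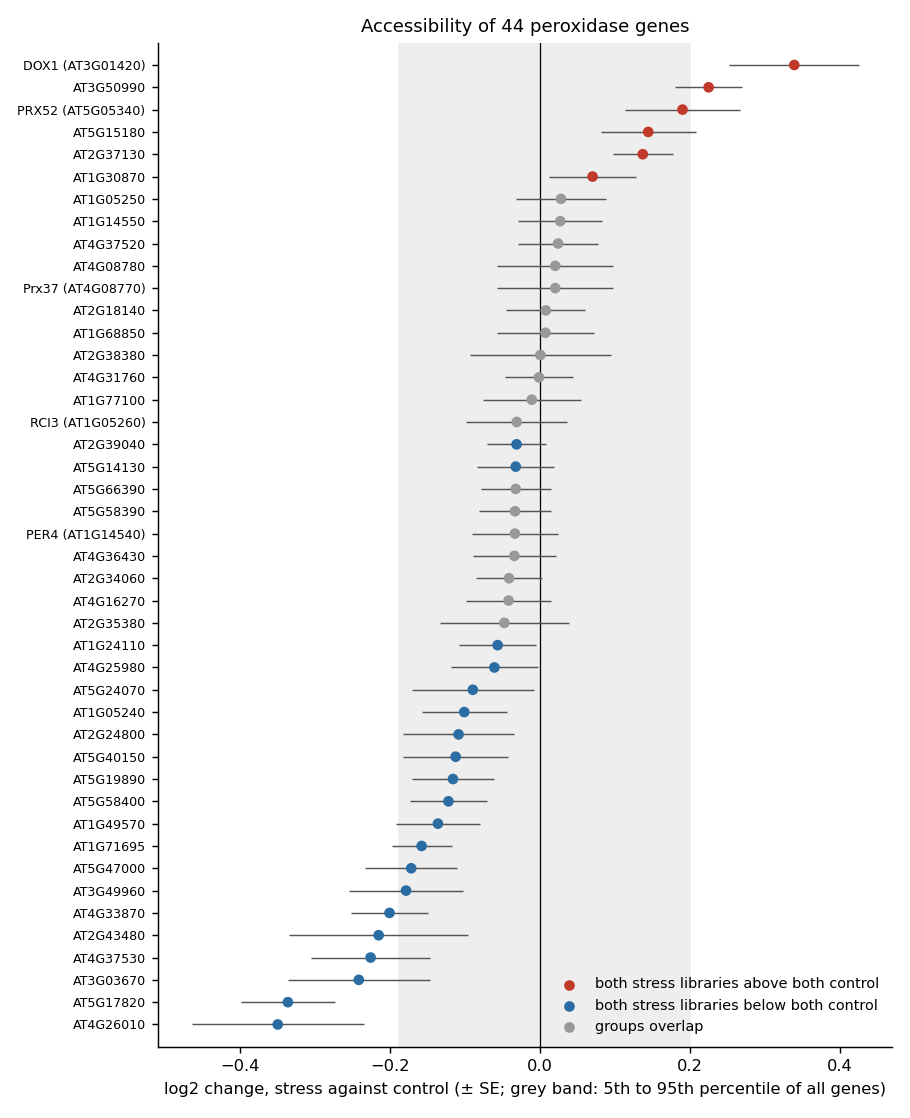
The log2 change of each tested peroxidase gene (x axis, stress against control, mean ± SE from edgeR), ordered from the largest fall to the largest rise, with colour for groups whose libraries do not overlap. Most points lie left of 0 and inside the grey band, the 5th to 95th percentile of all genes (-0.19 to 0.20), and no gene passed the threshold.

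Among the falls, AT4G26010, a peroxidase annotated as expressed in roots and known from root hairs, had 19.5 and 15.5 CPM in control replicates 1 and 2, and 13.5 and 13.9 CPM in stress replicates 1 and 2. Its log2 change was -0.35 ± 0.11 (SE; adjusted p = 0.147, edgeR). The control libraries differed from each other by more than the lower of them differed from the stress libraries. Without control replicate 1 the log2 change was -0.18, a smaller fall than those of AT3G03670 (-0.34) and AT5G17820 (-0.30) in the same fit, and without control replicate 2 it was -0.51.

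AT5G17820, a cell wall peroxidase and one of the known targets of UPB1, had 25.9 and 24.7 CPM in the control libraries and 19.5 and 20.5 CPM in the stress libraries. Its log2 change was -0.34 ± 0.06 (SE; adjusted p = 0.0625, edgeR). Both groups were tight and did not overlap, and the change lay between -0.37 and -0.30 with any 1 library left out.

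The other falls of the 6 largest were smaller. AT3G03670 had 15.6 and 18.2 CPM in control and 14.4 and 14.2 CPM under stress (log2 change -0.24 ± 0.09). AT4G37530, annotated with a response to salt stress, had 33.1 and 28.8 CPM in control and 25.1 and 27.7 CPM under stress (-0.23 ± 0.08). Its neighbour AT4G37520 had a log2 change of 0.02 ± 0.05, with 40.2 and 43.5 CPM in control and 42.7 and 42.5 CPM under stress. AT2G43480 had 11.6 and 9.48 CPM in control and 9.29 and 8.84 CPM under stress (-0.21 ± 0.12), with almost no gap between the groups. AT4G33870, whose only shared region is nearer to the start of another gene, had 30.5 and 29.4 CPM in control and 25.7 and 26.4 CPM under stress (-0.20 ± 0.05). The adjusted p of these genes ran from 0.10 for AT4G33870 to 0.323 for AT2G43480 (edgeR). Except in AT4G33870, the size rested on which control library was kept. Without control replicate 1 and without control replicate 2, respectively, the log2 change was -0.34 and -0.12 in AT3G03670, -0.13 and -0.32 in AT4G37530, and -0.07 and -0.36 in AT2G43480.

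On the side of rises, DOX1, which oxygenates fatty acids in defence, had 37.7 and 46.3 CPM in control and 52.8 and 53.6 CPM under stress. Its log2 change of 0.34 ± 0.09 (SE; adjusted p = 0.10, edgeR) was the largest of the 44, and control replicate 1 lay far below control replicate 2. The change was 0.20 without control replicate 1, below that of AT3G50990 (0.27) in the same fit, 0.50 without control replicate 2, and 0.22 with equal numbers of nuclei per cluster. AT3G50990, annotated with mucilage extrusion from seeds, had 52.5 and 49.3 CPM in control and 59.2 and 59.7 CPM under stress (log2 change 0.22 ± 0.05, adjusted p = 0.0678, edgeR). Its only shared region has XERO1 as the nearest gene and also lies in the window of LTI30, both dehydrin genes, which code for proteins that protect cells during drying. This region cannot be given to the peroxidase gene alone.

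PRX52 (AT5G05340), a peroxidase of lignin formation, had 30.9 and 36.5 CPM in control and 38.0 and 39.0 CPM under stress (log2 change 0.19 ± 0.08). AT5G15180 had 33.7 and 38.1 CPM in control and 39.5 and 39.97 CPM under stress (0.14 ± 0.06). AT2G37130, annotated with defence against fungi and with a region over its own start, had 55.1 and 56.8 CPM in control and 61.2 and 61.9 CPM under stress (0.14 ± 0.04). In AT1G30870, another peroxidase known from root hairs, the values were 22.4 and 23.3 CPM in control and 24.3 and 23.7 CPM under stress (0.07 ± 0.06). The gaps between the groups were small beside the spread of the control libraries in PRX52 and AT5G15180. Without control replicate 1 their log2 changes were 0.08 and 0.06, and without control replicate 2 they were 0.32 and 0.24. The adjusted p of these 4 genes ran from 0.123 for AT2G37130 to 0.492 for AT1G30870 (edgeR). In PRX52, AT5G15180 and AT1G30870 the only shared region is nearer to the start of another gene.

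**Figure D3:**
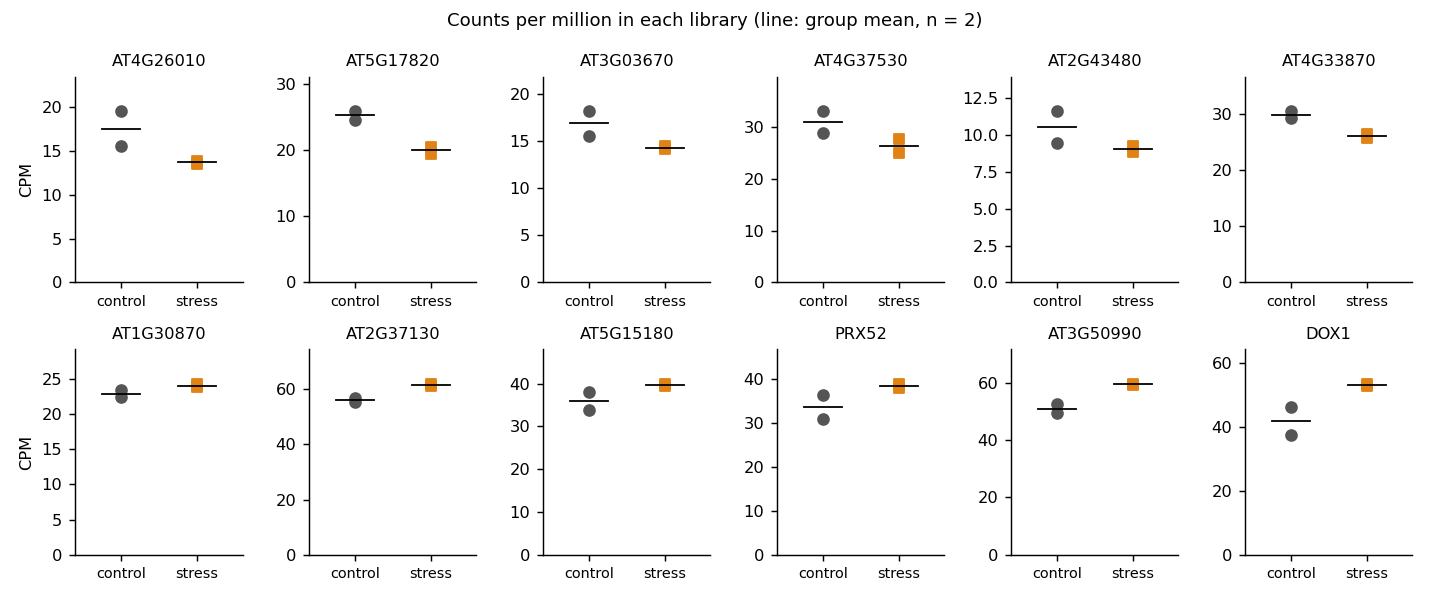
CPM of the 6 largest falls (top) and the 6 largest rises (bottom) among peroxidase genes whose groups did not overlap, each point 1 library and each line the mean of 2 (y axes start at 0). In AT5G17820 control lies at 24.7 and 25.9 and stress at 19.5 and 20.5, while in DOX1 the 2 control libraries stand apart at 37.7 and 46.3.

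By known role, 2 of the 4 Casparian strip peroxidases could be tested. RCI3 (PER3, AT1G05260), found in the endodermis and induced by cold, had 20.7 and 19.5 CPM in control and 19.4 and 20.01 CPM under stress (log2 change -0.03 ± 0.07). Its only shared region covers the start of AT1G05250 and not its own. AT5G66390 had 77.4 and 73.8 CPM in control and 75.7 and 72.1 CPM under stress (-0.03 ± 0.05). PER9 (AT1G44970) had no peak in any library, and AT4G11290 had none in control replicate 1. Of 8 peroxidases with a part in lignin, 3 were tested: PRX52 (above), AT1G05250 (log2 change 0.03 ± 0.06) and PER4 (-0.03 ± 0.06). Of 7 root hair peroxidases 5 were tested, among them AT4G26010 and AT1G30870 (above). AT1G05240 had 39.6 and 36.2 CPM in control and 35.7 and 34.9 CPM under stress (-0.10 ± 0.06). PER73 (AT5G67400) and PER60 (AT5G22410), which are not members by the rule, had log2 changes of -0.03 ± 0.05 and -0.01 ± 0.08. The oxidative burst peroxidases PRXCA and PRXCB, also not members, had -0.03 ± 0.08 and 0.09 ± 0.07. AT4G16270, the other tested target of UPB1, had a log2 change of -0.04 ± 0.06. In AT5G66390, PER4 and AT4G16270 every shared region is nearer to the start of another gene.

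Pairs of members shared chromatin. AT1G05250 and RCI3 are divergent neighbours in the shared region of chr1:1527296-1528138, which covers the start of AT1G05250 and is the only shared region of RCI3. Prx37 and AT4G08780 have the region of chr4:5601403-5602384 as their only shared region, and their CPM are therefore identical: 17.7 and 19.9 in control, 19.0 and 19.2 under stress (log2 change 0.02 ± 0.08).

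Tested region by region, none of the 52 passed, where 1.15% of all shared regions did. At an unadjusted p under 0.05 there were 15, with a background of 23.5%, and DESeq2 called 7 (background 12.4%). The region nearest to the threshold was that of AT5G17820 (chr5:5887252-5888032), with 47.6 and 45.3 CPM in control and 35.7 and 37.6 CPM under stress, over the counts in shared regions. Its log2 change of -0.34 ± 0.06 had an adjusted p of 0.0543 (edgeR). Most of this region lies past the 3′ end of the gene, which is at base 5887871. The call depended on the setting. The region passed with peak width as an offset (adjusted p = 0.0392), with a limit of 2000 counts per nucleus (0.0468), with fragments in place of cuts (0.0499), with equal numbers of nuclei per cluster (0.0453), and with DESeq2 (0.000103). Over all shared regions 2.32%, 1.53%, 1.42% and 0.594% passed in the first 4 of these. The AT5G17820 region also passed without control replicate 1 (0.000356) or 2 (5.36e-06), where 19% and 43.3% of all shared regions did. It did not pass under scaling by library totals (0.0618), with all barcodes (0.0544), without the top 5% of nuclei (0.0661), without stress replicate 1 (0.327) or without stress replicate 2 (0.216).

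AT5G17820 had 4 regions in all, with different values. Besides the 3′ region, a region in the gene body (chr5:5888708-5889529) had a peak in both stress libraries, at 37.9 and 35.5 CPM of the library total, and no peak in either control library, where it therefore has no value. A region over the start (chr5:5890204-5890865) and another upstream (chr5:5891727-5892466) had peaks in the 3 libraries other than control replicate 1. In those 3 libraries the region over the start had 32.0 CPM in control replicate 2 and 32.9 and 35.0 CPM under stress. The upstream region had 27.2 CPM in control replicate 2 and 20.6 and 20.1 CPM under stress, and its nearest start is that of another gene. When every peak of each library was counted, the log2 change of AT5G17820 turned to 0.82 (adjusted p = 0.641, edgeR), since a region without a peak then counts as 0.

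A similar case was AT3G03670. Its shared region was narrow, with peaks of 395 and 424 bases in the control libraries and 376 and 364 bases in the stress libraries. An adjoining region (chr3:905109-905620) had a peak only in the stress libraries. With peak width as an offset the log2 change of the gene went from -0.24 to -0.09.

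As many regions again were outside the shared set: 52 further regions in peroxidase windows had a peak in 1 to 3 libraries. Of these, 28 (53.8%) lacked a peak in control replicate 1 alone, the library with the fewest counts, beside 37.8% of the 9339 such regions of the genome. Peaks in the stress libraries alone, and in both of them, were seen in 5 regions (9.62%), those of AT2G22420, AT3G03670, AT4G16270, AT5G15180 and AT5G17820, beside 12.0% in the genome. The opposite pattern was seen in 0 regions, beside 2.45%.

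Of the 22 peroxidase genes without a shared region, 6 had no peak in any library: AT1G34510, AT1G44970, AT2G38390, AT5G06730, AT5G51890 and AT5G64100. AT5G51890 is annotated with lignification of tracheary elements in roots. AT2G22420 had a peak in the stress libraries only and AT3G32980 in stress replicate 2 only. PRX25 (AT2G41480), a cationic cell wall peroxidase of lignification, had a peak over its start in all libraries but stress replicate 2. AT5G64110 had a peak in control replicate 1 at 1 of its 2 regions. The remaining 12 genes, AT2G18150, AT2G18980, AT3G01190, AT3G21770, AT3G28200, AT4G11290, AT4G17690, PRXR1, AT4G33420, AT5G19880, AT5G39580 and PRX71, had peaks in the other 3 libraries and none in control replicate 1.

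To reach these genes, the regions with a peak in control replicate 2 and both stress libraries were tested on these 3 libraries alone, a choice made after seeing the data. The comparison has a single control library, whose spread is taken to equal that of the stress libraries, and its calls stand for these 3 libraries. It covered 28 peroxidase regions outside the shared set, of 22 genes, 13 of them without a shared region. Of the 28, 8 passed (6 higher and 2 lower), beside 18.2% of the 3527 regions of that kind and 15.7% of all 21867 regions tested. Their median log2 change was 0.06 beside 0.04 for the 3527.

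The 6 higher regions belonged to 5 loci. The region upstream of AT5G19880, which is annotated with responses to ethylene and viruses and shares it with AT5G19890, had 30.4 CPM in control replicate 2 and 39.8 and 37.5 CPM under stress (log2 change 0.35 ± 0.06, adjusted p = 0.00295, edgeR). At AT3G01190, annotated as expressed in root and hypocotyl, the region over the start (chr3:68456-69327) had 43.99 CPM in control replicate 2 and 53.0 and 53.8 CPM under stress (0.28 ± 0.05), and the region further upstream had 34.7, 39.3 and 39.3 CPM. PRXR1 had a region far upstream with 23.2 CPM in control replicate 2 and 28.8 and 27.8 CPM under stress (0.29 ± 0.08), while its 2 other regions did not pass. AT2G18980 had 26.8, 31.2 and 33.8 CPM (0.28 ± 0.07). The region over the start of AT3G28200, a cell wall peroxidase, had 28.7, 34.5 and 33.4 CPM (0.24 ± 0.06).

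The 2 lower regions were the upstream region of AT5G17820 (log2 change -0.41 ± 0.08) and the region over the start of AT4G33420, with 34.6 CPM in control replicate 2 and 29.2 and 29.7 CPM under stress (-0.23 ± 0.06). PRX71 (AT5G64120), annotated with induction by low osmolarity and with lignification, had 49.95 CPM in control replicate 2 and 50.5 and 51.3 CPM under stress over its start (0.03 ± 0.05). The region over the start of AT4G26010 had 38.5 CPM in control replicate 2 and 38.1 and 37.3 CPM under stress, with a log2 change of -0.03 ± 0.06. The only shared region of this gene lies upstream. With it, the log2 change of the gene was -0.35 over all 4 libraries and -0.18 without control replicate 1.

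**Figure D4:**
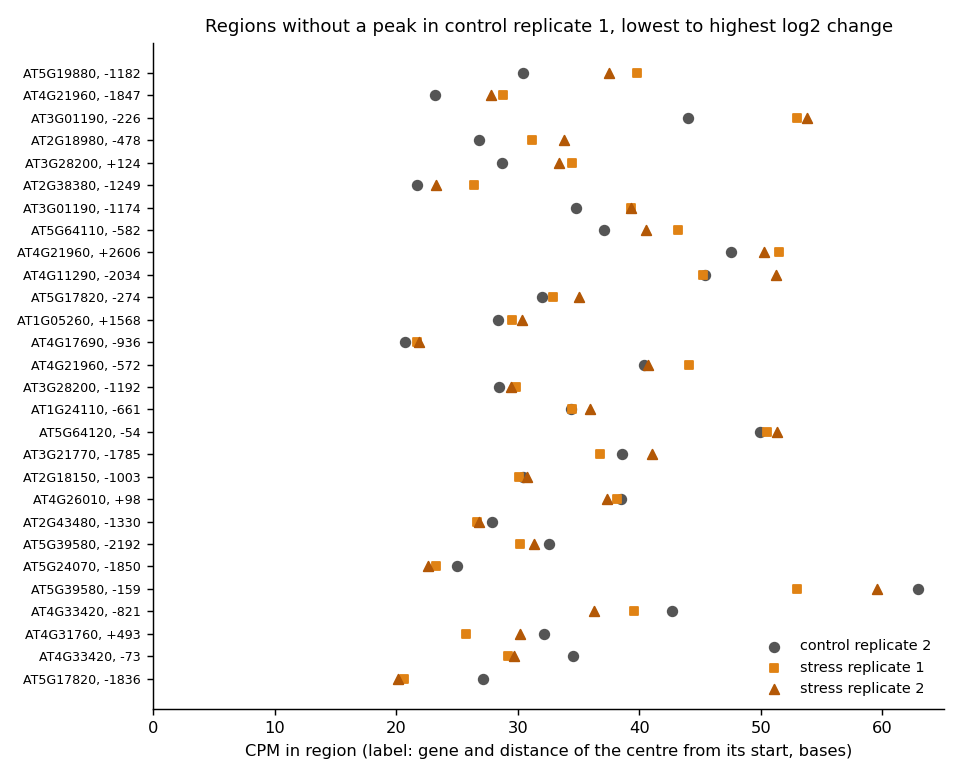
CPM (x axis) of the 28 peroxidase regions that lacked a peak in control replicate 1 alone, for control replicate 2 and both stress libraries, ordered by log2 change. The top region, of AT5G19880, has 30.4 CPM in the control library and 37.5 and 39.8 CPM under stress, and most of the other regions lie close together.

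Nuclei were grouped on the shared regions outside peroxidase windows into 6 clusters of 4856 to 14936 nuclei. Their median depth ran from 2292 counts in cluster 1 to 6797 in cluster 6. No marker of a root cell type stood among the 10 leading genes of a cluster, and the clusters are therefore called by number. The 10 leading genes of cluster 1 were all on chromosome 2, at ratios of 2.92 to 2.93 to all nuclei. What sets this cluster apart was not tested. Marker lists of the study, peroxidases left out, differed little: relative to all nuclei, the lists above 1.1 were meristem at 1.15 in cluster 4, cortex at 1.17 in cluster 6, stele, phloem and xylem at 1.13, 1.16 and 1.12 in cluster 3, and endodermis, xylem and stele at 1.19, 1.12 and 1.11 in cluster 5. Of the 16 endodermis markers 8 had a shared region, and 4 of these were above 1 in cluster 5 in every library. The levels by cluster are a description, with no test.

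Peroxidase genes differed between clusters. The ratio of the highest to the lowest cluster had a median of 1.37 over the 44 genes beside 1.26 over all genes, and it was above 1.5 in 16 of them (36.4%) beside 19.6% of 22811 genes. The 16 include both Prx37 and AT4G08780, which have the same region and the same values. Such a ratio also widens where counts are low, down to 20 per member, library and cluster, and the part of this was not tested.

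The strongest pattern was that of the region of Prx37 and AT4G08780. Prx37 is annotated as an apoplastic peroxidase of vascular bundles. In cluster 5 the region had 73.1 and 65.0 CPM in the control libraries and 76.7 and 68.6 CPM in the stress libraries, and in cluster 3 it had 57.5, 68.5, 58.5 and 64.6 CPM in the same order. In cluster 2 it had 19.3, 17.8, 20.3 and 19.8 CPM. The ratio to all nuclei was 2.05 in cluster 5 (1.78 to 2.26 over the 4 libraries), 1.79 in cluster 3 (1.68 to 1.87), 0.66 in cluster 6 and 0.56 in cluster 2 (0.49 to 0.60). The libraries of the high and the low clusters did not overlap. In cluster 5 the ratio ranked at the percentile 99.9 of all genes and in cluster 2 at 0.83, and the highest ratio was 2.05 to 2.09 with fewer clusters, more clusters or all shared regions used for grouping.

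Further members leaned to single clusters by less. AT1G14550 (1.35), AT5G15180 (1.29) and DOX1 (1.27) led in cluster 2, and AT1G30870 (1.34) followed Prx37 in cluster 3. In cluster 5, AT1G05250 was at 1.34 (1.21 to 1.43 over libraries), AT2G38380 at 1.34 and RCI3 at 1.32. The only shared region of RCI3 is the one over the start of AT1G05250. The ratio of RCI3 is therefore that of this region and not of its own start. AT2G37130 (1.27), AT5G15180 (1.24) and DOX1 (1.17) led in cluster 6. The leading genes of clusters 1 and 4 were AT2G43480 (1.25 and 1.22), AT1G77100 (1.13 and 1.21), AT1G24110 (1.14, cluster 1) and AT5G24070 (1.26, cluster 4), of which AT5G24070 ranged from 0.96 to 1.57 over libraries. AT4G37530 and AT5G58400 were nearly even across clusters.

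**Figure D5:**
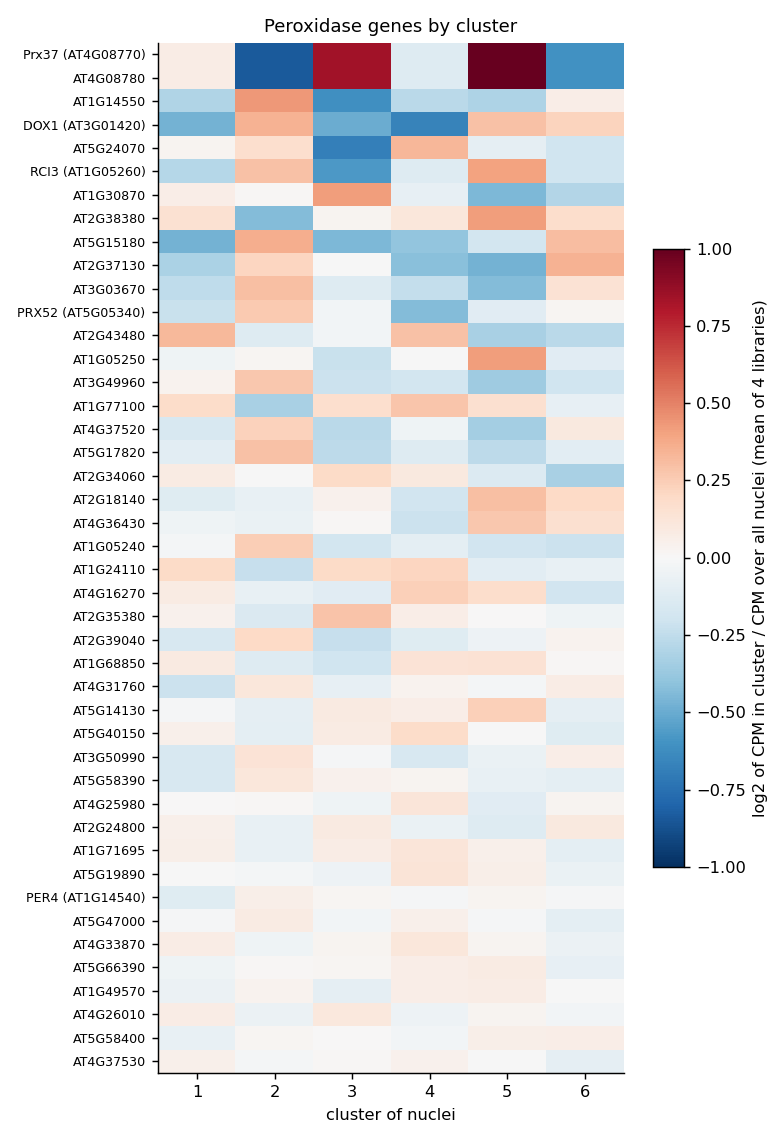
Level of each peroxidase gene in each cluster relative to all nuclei (colour, log2 of the ratio of CPM, mean of 4 libraries), ordered from the widest range at the top. Prx37 and AT4G08780, which share 1 region, stand out with ratios of 2.05 in cluster 5 and 0.56 in cluster 2, and most genes at the bottom are pale in every cluster.

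The share of nuclei per cluster differed between libraries, with cluster 1 at 43.5% and 34.6% in control and 27.6% and 26.8% under stress, and cluster 5 at 6.29% and 8.69% against 11.4% and 11.6%. The comparison of conditions was therefore repeated within each cluster. None of the 44 genes passed in any cluster, where 0.28%, 0.872%, 0.25%, 0.491%, 0.342% and 0.14% of all genes did in clusters 1 to 6, and DESeq2 called 0 as well (background 0.242% over the 6 clusters). At an unadjusted p under 0.05 there were 5, 12, 4, 5, 10 and 9 genes in clusters 1 to 6, with backgrounds of 11.5%, 14.3%, 11%, 11.3%, 12.4% and 14.7%. The lowest adjusted p was that of AT5G17820 in cluster 2, with 30.6 and 32.4 CPM in control and 23.5 and 24.9 CPM under stress (log2 change -0.38 ± 0.08, adjusted p = 0.0571, edgeR). Its log2 change was below 0 in all 6 clusters, from -0.50 in cluster 3 to -0.16 in cluster 4. That of DOX1 was above 0 in all 6, from 0.08 in cluster 3 to 0.42 in cluster 1. Prx37 was between -0.09 in cluster 6 and 0.13 in cluster 2. Without control replicate 1 or 2 there were 9 and 19 calls among the 264 tests over the 6 clusters, with backgrounds of 3.74% and 7.31%.

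The genes that supply or use the same substrates were given beside the peroxidases, from lists chosen for their role. None of their 61 tested genes passed (edgeR), and DESeq2 called 8, beside 11.2% of all genes. Of 17 monolignol genes 16 were tested, 15 of them with a log2 change above 0 (49.4% of all genes); 9 had an unadjusted p under 0.05, all of them higher (background 12.2%), and the median log2 change was 0.13. COMT1, a methyltransferase of monolignol synthesis, had 68.3 and 67.9 CPM in control and 84.2 and 77.7 CPM under stress (0.25 ± 0.05, adjusted p = 0.0659, edgeR). Of 17 laccases 13 were tested, 12 of them with a log2 change below 0 (50.6% of all genes); 6 had an unadjusted p under 0.05, all of them lower (background 9.71%), and the median was -0.05. LAC16 had 33.1 and 32.4 CPM in control and 27.4 and 27.6 CPM under stress (-0.25 ± 0.05, adjusted p = 0.0626, edgeR). For the lists that follow, the background at an unadjusted p under 0.05 (edgeR) was 21.9% of all genes. Within the 10 respiratory burst oxidases 1 had an unadjusted p under 0.05, RBOHF, with a log2 change of -0.13 ± 0.04. No superoxide dismutase of 6 tested did, and 2 of 8 catalases and ascorbate peroxidases did, CAT2 with a log2 change of 0.12 and SAPX with -0.11. Of 7 tested Casparian strip genes, MYB36, the transcription factor that turns on this programme, had the only unadjusted p under 0.05 (log2 change 0.16 ± 0.05, adjusted p = 0.120, edgeR). UPB1 had 28.4 and 30.3 CPM in control and 32.3 and 35.8 CPM under stress (0.22 ± 0.06, adjusted p = 0.127, edgeR).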

How the data were processed

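The deposited matrices hold raw counts per barcode, with gene rows first and then the peaks of that library. The authors made them with Cell Ranger ARC 2.0.2, and the submitters' processing notes also name Signac 1.7.0 and Seurat 4.3.0; the build is TAIR10. Gene rows have no names and served only to call nuclei. Peak files give positions. Barcodes with 1000 to 100000 ATAC and 1000 to 25000 RNA counts were kept as called nuclei. Each library alone had more of them than the study kept for the whole of that condition. The study also filtered on nucleosome signal and on enrichment at gene starts, which was not done here, and doublets were not removed. Stress replicate 1 had 15302 called nuclei, more than the 15000 loaded, so not every called barcode can be taken as a single intact nucleus. Peaks of the 4 libraries were merged into 27679 regions, of which 18340 had a peak in every library. Regions overlapping a gene body or its 2 kb upstream by 1 base or more were summed per gene. CPM of genes, of regions and of clusters have different totals and are compared within a kind only. Each library counts in its own peaks, so that peak width enters the counts.

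Sums per library were tested by edgeR 4.0.16 (TMM, filterByExpr, quasi-likelihood, R 4.3.3) over all genes or regions, with DESeq2 1.42.0 as an alternative; the edgeR procedure was tested on simulated data. Libraries are the replicates. The study calls them biological replicates, and the labels do not say whether they come from separate plants, so that p-values measure the spread between libraries. Nuclei were clustered by latent semantic indexing, centred per library, and Leiden (leidenalg 0.10.2, resolution 0.6). The lowest count of a peroxidase gene in a library was 798 (counting CV 3.54%, beside a biological CV of 5.11% over all genes) and 20 within a cluster (22.4%). Other alternatives were scaling by library totals, no filter, leaving out each library, a replicate block, other limits on nuclei, fragments, peak width, and other assignments of regions.

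The members and the lists were chosen with earlier results of these data known. Named genes were those past the threshold, the 6 largest rises and falls without overlap of groups, the highest and lowest levels, those with a known role, those sharing a region, those without a shared region, and the 3 leading ones per cluster. Genes named beyond this rule (AT1G71695, AT4G37520, COMT1, LAC16, RBOHF, CAT2, SAPX, MYB36 and the loci of the comparison on 3 libraries) were chosen after their values were seen.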

Additional observations from a re-analysis of the deposited data

Results flagged for a closer look

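In data that the comparisons on shared regions do not use, 5 regions in peroxidase windows had a peak in each stress library and in neither control library. Their values under stress, in CPM of the library total, were 41.4 and 40.1 at AT2G22420, 25.4 and 25.1 at AT3G03670, 16.7 and 22.9 at AT4G16270, 28.4 and 28.5 at AT5G15180, and 37.9 and 35.5 at AT5G17820. No peak in the control libraries means no value there, not a value of 0. Both control libraries had fewer peaks and counts than the stress libraries, the part of this in the pattern was not tested, and the share of such regions among peroxidase regions outside the shared set (9.62%) was near that of the genome (12.0%).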

How the results depend on the processing

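No peroxidase gene was called under library totals, no filter, all barcodes, other limits on nuclei, fragments, peak width, equal nuclei per cluster, every peak, the gene start window or the nearest start. DESeq2 called 7 genes and 7 regions. Leaving out 1 library gave 0 to 20 genes, 0 to 23 regions and 0 to 19 calls within clusters, the high values without control replicate 2 (backgrounds as given above). Single regions were called under the limit of 2000 counts, fragments, peak width and equal nuclei (1 each, that of AT5G17820 in every case). For the linked pathways, DESeq2 called 8, peak width 2 (background 1.39%), the gene start window 2 (1.2%), the nearest start 1 (1.02%), and leaving out 1 library 0 to 27. The median percentile of level per kb was 39.5 over region length alone and 32.8 in the stress libraries alone. With every peak of each library, 4 falls turned: AT4G26010 to 0.31, AT5G17820 to 0.82, AT3G03670 to 0.86 and AT2G43480 to 0.83, where a region without a peak counts as 0. The cause of the other differences was not tested.

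Deviations from the group means did not correlate between libraries of equal replicate number (0.0047 over 22820 genes). With 2 libraries per group, this value cannot show whether equal numbers had a day or batch in common. With a replicate block there were 3 genes called, AT5G17820 (adjusted p = 0.0168), AT3G50990 (0.0195) and DOX1 (0.00511, edgeR), and 5 genes of the linked pathways (background 5.82%), 2 regions, those of AT5G17820 and DOX1 (4.72%), and 4 calls within clusters (1.59%). Each group had 2 libraries, which limits precision.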
